A study of Mus musculus with 2 samples.

Results

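The regulators of G-protein signalling (RGS) examined here were Rgs2, Rgs3, Rgs4, Rgs5, Rgs10, Rgs12, Rgs14, Rgs16, Rgs19 and Rgs20, 10 of the 18193 genes on the array that could be named from a probe set with a single gene symbol. They are covered by 28 of the 45101 probe sets, a probe set being a group of short probes whose brightness is summarised as a single signal. The members were chosen with earlier results from these arrays known, so their values are a description and no test was applied to them. The series compares 2 arrays, 1 per condition. The first was RNA of primary keratinocytes from newborn mice with keratinocyte-specific loss of MED1, titled MED1epi-/- and produced by crossing floxed MED1 mice with K5Cre mice, which express Cre recombinase from the keratin 5 promoter. The second was RNA of primary keratinocytes from mice titled MED1flox/flox, called wild-type elsewhere in their labels and control here. Both were labelled C57BL/6, and both cultures were grown on collagen I without a further treatment. The number of animals behind each culture is not given in the sources used here.

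G-protein-coupled receptors switch on heterotrimeric G proteins by exchanging the GDP bound to the G alpha subunit for GTP, which frees G alpha and the G beta-gamma pair to act on effectors. RGS proteins end the signal: their RGS domain binds GTP-loaded G alpha of the Gi and Gq classes and speeds up GTP hydrolysis. Keratinocytes use such receptors to sense calcium, lysophospholipids, nucleotides and proteases, which bear on their growth, migration and differentiation. The R4 group (here Rgs2, Rgs3, Rgs4, Rgs5 and Rgs16) consists mostly of small proteins with little beyond the RGS domain. In the R12 group, RGS12 and RGS14 also carry Ras-binding domains and a GoLoco motif that holds G alpha in its GDP form, while RGS10 is small. The RZ group (here Rgs19 and Rgs20) is marked by a string of cysteines that can be palmitoylated.

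By the probe set used for each gene, Rgs16 and Rgs3 were the members with ratios farthest from 0 in each direction. Rgs2, with Rgs16 in the R4 group, was lower by a smaller amount, at a log2 ratio of -0.33. Rgs14 had a lower ratio than Rgs2, at -0.64, but Rgs14 and Rgs20 had no entry among the promoter sequences used. The 250 bases before the annotated starts of Rgs16, Rgs2 and Rgs3 are shown, 5′ to 3′ on the gene's strand. They come from RefSeq promoter sequences of build GRCm38.p6. Capitals mark matches on either strand to 8 motifs: the full cAMP response element TGACGTCA, its core TGACG, the AP-1 motif TGANTCA, the E-box CACGTG, the nuclear receptor motif AGGTCA, the GC box GGGCGG, the CCAAT box and the TATA box TATAAA. The core is contained in the full element, and neighbouring matches may overlap.
Rgs16, chr1:153740103-153740352, + strand: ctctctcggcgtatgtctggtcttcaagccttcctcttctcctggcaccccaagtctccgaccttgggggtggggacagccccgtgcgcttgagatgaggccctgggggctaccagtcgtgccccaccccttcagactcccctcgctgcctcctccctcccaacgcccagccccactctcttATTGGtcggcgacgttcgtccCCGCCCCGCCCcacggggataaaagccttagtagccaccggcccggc
Rgs2, chr1:144004150-144004399, - strand: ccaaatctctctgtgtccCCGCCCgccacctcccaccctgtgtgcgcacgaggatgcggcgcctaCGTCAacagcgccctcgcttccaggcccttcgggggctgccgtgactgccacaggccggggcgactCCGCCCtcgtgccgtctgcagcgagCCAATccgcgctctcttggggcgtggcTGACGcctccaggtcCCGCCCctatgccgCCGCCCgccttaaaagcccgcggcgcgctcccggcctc
Rgs3, first start, chr4:62559597-62559846, + strand: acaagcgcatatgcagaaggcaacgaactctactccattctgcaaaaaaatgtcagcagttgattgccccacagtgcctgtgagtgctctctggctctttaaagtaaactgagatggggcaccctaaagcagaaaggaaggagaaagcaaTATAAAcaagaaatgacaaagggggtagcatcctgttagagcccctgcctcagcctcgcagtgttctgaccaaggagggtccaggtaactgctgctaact
Rgs3, second start, chr4:62619422-62619671, + strand: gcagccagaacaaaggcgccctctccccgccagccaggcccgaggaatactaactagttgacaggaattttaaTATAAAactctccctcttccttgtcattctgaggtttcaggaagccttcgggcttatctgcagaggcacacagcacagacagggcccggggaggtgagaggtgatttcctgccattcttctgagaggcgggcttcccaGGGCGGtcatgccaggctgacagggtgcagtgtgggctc

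The Rgs16 window held 2 GC boxes, beginning 47 and 42 bases before the start and overlapping, and 1 CCAAT box at 68 bases. In the Rgs2 window there were 4 GC boxes, 1 CCAAT box and 2 cAMP element cores, at 185 and 67 bases. The windows of Rgs3 had in common a TATA box, at 100 bases for the first start and 177 bases for the second, and only the second held a GC box. Of 32851 promoter windows of the same length, 32.7% held a GC box, 33.8% a CCAAT box, 17.8% the cAMP element core and 12.4% a TATA box. The full element (1.55% of windows), the AP-1 motif (6.75%), the E-box (6.02%) and the nuclear receptor motif (14%) did not occur in the 4 windows shown. GC content was 66.4% for Rgs16, 72.4% for Rgs2, and 48.4% and 56.8% for the first and second start of Rgs3. A match describes these letters only, and which start the probe sets of Rgs3 report on is not known from the sources used here.

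The labels were checked before the members. Each of the 7 Med1 probe sets read higher on the array labelled MED1-null, the brightest at 1039 there against 462.7 on the control array. The log2 ratios of the 6 measured Med1 probe sets ran from 0.55 to 1.57 (MED1-null over control), so the check did not bear out the labels. The part of the gene that was deleted is not given in the labels, so a probe set outside it would check nothing. Whether the labels were exchanged, which would reverse every direction, was not tested and cannot be told from these sources. The array is called the MED1-null array after its label, and every direction below is the label's. Transcripts of the sex chromosomes differed as well: Xist read 55.7 on the MED1-null array and 5461 on the control array, and the Y-linked Eif2s3y read 2164 on the MED1-null array and 4.2 on the control array. By these transcripts the control culture read as female and the MED1-null culture as male. Genotype label and sex cannot be told apart in any value below, for genes on any chromosome. Of 7 keratinocyte markers, 5 had a signal above 67.7, the median of all probe sets, on both arrays. The basal markers Krt14, Krt5, Col17a1 and Trp63 were far above it, with Krt14 at 36849 on the MED1-null array and 32905 on the control array, and Krt5 at 32220 on the MED1-null array and 26821 on the control array. Krt10, a marker of differentiating cells, read 251.3 on the MED1-null array and 194.6 on the control array. Krt15 and Krt1 were under 67.7 on both.

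Before ratios were taken, a signal under 67.7, the median of all probe sets on both arrays, was set to that value (the floor), because low signals of this kind are noisy. A gene counts as measured where its probe set with the highest mean signal reached the floor on either array. With 1 array per condition there was no spread between cultures and no test. A spread was available only between probe sets for the same gene, as a pooled SD of 0.31 on the log2 scale (1.24-fold) over 4916 genes. Fewer cells of a type and less RNA per cell cannot be told apart in such bulk RNA.

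By this measure 8 of the 10 RGS members were measured, and Rgs4 and Rgs5 were not. Rgs16 was the single member at least 2-fold lower on the MED1-null array, and none was at least 2-fold higher. Over all 11621 measured genes, 2.23% were lower and 1.63% higher by that margin, together 3.86%. Lower genes made up 57.7% of those beyond 2-fold, 68.7% after a lowess rescaling of the arrays, but 45.5% with the floor at the 25th percentile and 46.0% with none, so the majority changed sides with the floor. Among the 8193 genes with a signal of at least 4 times the floor on 1 of the arrays, to which Rgs16 belongs, the shares were 2.25%, 1.31% and 3.55%. Of the 8 members, 3 had a log2 ratio above 0 (MED1-null over control) and 5 below. Their median log2 ratio was -0.15, against 0.06 for all measured genes, of which 42.9% lay below 0. Among 17 measured RGS probe sets, 11 were lower and 6 higher on the MED1-null array, with 1 beyond 2-fold in each direction, a probe set of Rgs16 and one of Rgs3. Over 21195 measured probe sets with a single symbol, 2.08% were lower and 1.82% higher by 2-fold or more.

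**Figure D1:**
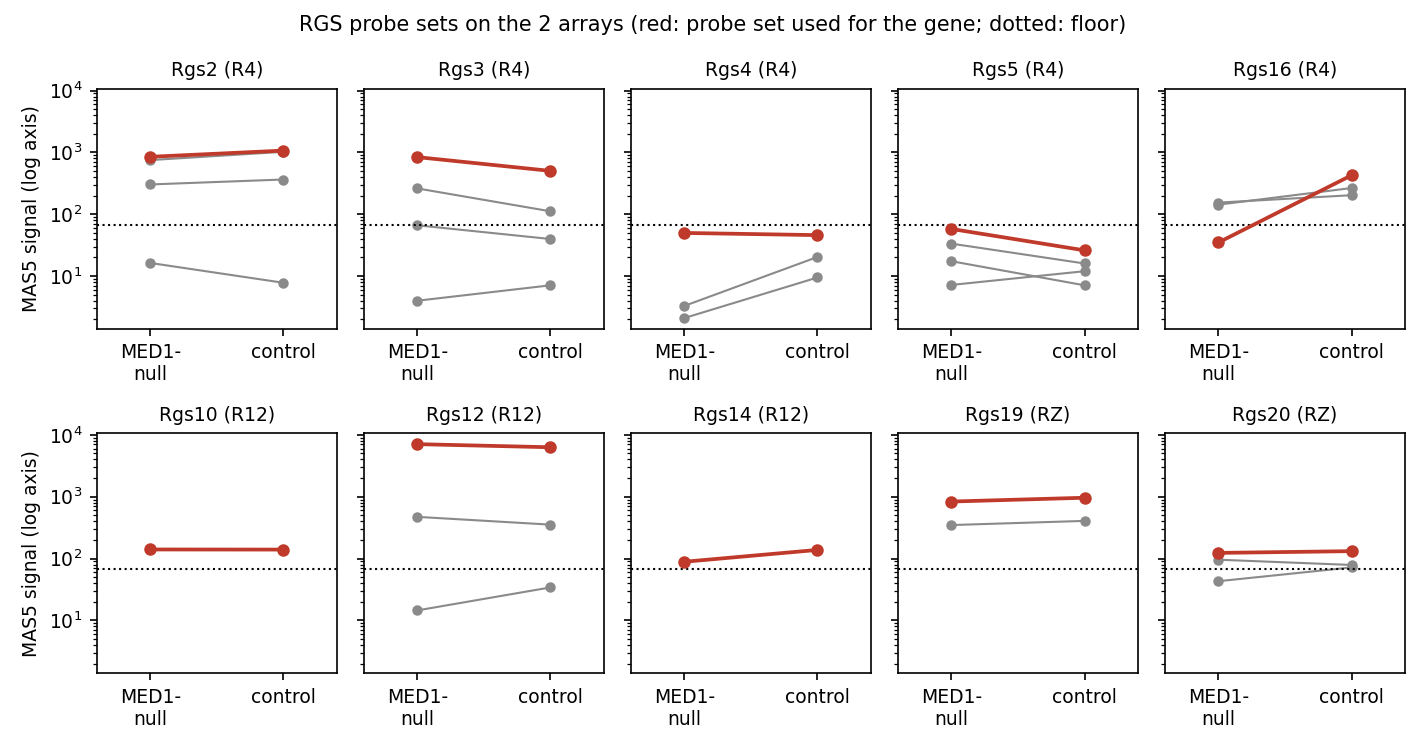
MAS5 signal (log axis) of every probe set of the 10 RGS members on the MED1-null array (left point) and the control array (right point) of each panel. The red line is the probe set used for the gene, grey lines are its other probe sets, and the dotted line is the floor of 67.7. All probe sets of Rgs4 and Rgs5 lie under the floor, and the red line of Rgs16 joins 35.0 (MED1-null) and 427.2 (control).

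Rgs16, an R4 member that acts on Gi and Gq class subunits, had the widest difference of the family by the probe set used for each gene. By the median over measured probe sets Rgs3 lay farther from 0, at 0.98, than Rgs16, at -0.89. The brightest probe set of Rgs16, 1455265_a_at, read 35.0 on the MED1-null array, under the floor, and 427.2 on the control array. The signal was thus at least 6.31-fold lower on the MED1-null array (log2 ratio of at most -2.66). The other probe sets of the gene gave smaller differences. Probe set 1426037_a_at read 143.2 on the MED1-null array and 265.8 on the control array, 1.86-fold lower. For 1451452_a_at the signals were 154.5 on the MED1-null array and 203.4 on the control array, 1.32-fold lower. The 3 probe sets therefore had the same direction, but only the first passed 2-fold, and the range of their log2 ratios, -2.66 to -0.40, is wide beside the pooled SD of 0.31. That median is short of 2-fold for Rgs16, and with a floor of 434.6, the 75th percentile, the gene was not measured.

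Rgs3, which in mammals is made in short and long forms, the longest with a PDZ domain, was the member with the highest ratio. Its probe set 1425296_a_at read 839.9 on the MED1-null array and 503.2 on the control array, 1.67-fold higher (log2 ratio 0.74). A second, 1425701_a_at, read 261.8 on the MED1-null array and 111.7 on the control array, 2.34-fold higher (log2 ratio 1.23). These 2 had the same direction. The 5th and 95th percentiles of the log2 ratio over all measured genes were -0.71 and 0.71, so the first probe set lay close to the upper one, and the pooled SD covers probe sets and not cultures. The third read 66.3 on the MED1-null array and 39.8 on the control array and the fourth 4.0 on the MED1-null array and 7.1 on the control array, all under the floor. The log2 ratio of Rgs3 ran from 0.37 to 0.98 over the processing alternatives, the lowest where probe sets under the floor entered a median.

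Rgs2, which favours the Gq class and is known as a gene quickly induced by receptor signals, was modestly lower in each measured probe set. The signals were 850.8, 752.4 and 303.7 on the MED1-null array and 1071.4, 1024.2 and 365.0 on the control array, in the same probe set order. Log2 ratios were -0.33, -0.44 and -0.27, close to one another and near the size of the pooled SD of 0.31. A further probe set of Rgs2 was under the floor, at 16.3 on the MED1-null array and 7.8 on the control array. No probe set of Rgs2 at the floor reached 2-fold.

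Rgs4 and Rgs5, the remaining R4 members, were under the floor in all of their probe sets on both arrays. The 3 probe sets of Rgs4, a gene best known from brain, lay between 2.1 and 49.9. The 4 of Rgs5, a marker of pericytes, the contractile cells around small vessels, lay between 7.1 and 57.9. The brightest of Rgs5 read 57.9 on the MED1-null array and 26.1 on the control array. With the floor lowered to 18.1, the 25th percentile, this probe set would count as 2-fold higher (log2 ratio 1.15), as would 6.98% of all genes measured at that floor. It carries the suffix _x_at, given by the manufacturer to probe sets that may bind other transcripts. Of the 4 probe sets of Rgs5, 3 read higher on the MED1-null array and 1 lower. Among the higher, 1417466_at (33.5 on the MED1-null array, 16.0 on the control array) and 1420941_at (17.4 and 7.1) lack that suffix. The pericyte genes Pdgfrb, Cspg4, Kcnj8 and Abcc9 were likewise under the floor on both arrays, Pdgfrb at 30.4 on the MED1-null array and 54.0 on the control array.

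In the R12 group, Rgs12 was bright on both arrays and differed little. Its probe set 1453129_a_at read 7075.7 on the MED1-null array and 6305.0 on the control array, a log2 ratio of 0.17. A second read 472.0 on the MED1-null array and 353.2 on the control array, with a log2 ratio of 0.42, and the third was under the floor at 14.5 on the MED1-null array and 34.1 on the control array. Rgs14, which joins Ras and Gi signalling through its Ras-binding domains and GoLoco motif, read 88.7 on the MED1-null array and 137.8 on the control array. This is 1.55-fold lower (log2 ratio -0.64), on the only probe set of the gene and close above the floor. Rgs10, known mainly from immune cells, read 140.1 on the MED1-null array and 139.5 on the control array, so the signals were nearly equal (log2 ratio 0.006). Its sign turned below 0 under rescalings of the arrays, down to -0.13.

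Rgs19 and Rgs20 of the RZ group were 1.15-fold and 1.07-fold lower on the MED1-null array by the probe sets used. Rgs19, also called GAIP, which binds Gi class subunits and the trafficking protein GIPC1, read 835.0 and 347.8 on the MED1-null array and 961.8 and 406.1 on the control array in its pair of probe sets. The log2 ratios were -0.20 and -0.22, nearly the same and smaller than the pooled SD. Rgs20, whose product has a preference for the G alpha subunit Gz, had signals near the floor. They were 123.3, 95.7 and 43.0 on the MED1-null array, against 131.6, 78.7 and 71.8 on the control array. The first gave a log2 ratio of -0.09, the second 0.28, and the third a bound of at most -0.08, so the probe sets of Rgs20 did not share a direction.

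**Figure D2:**
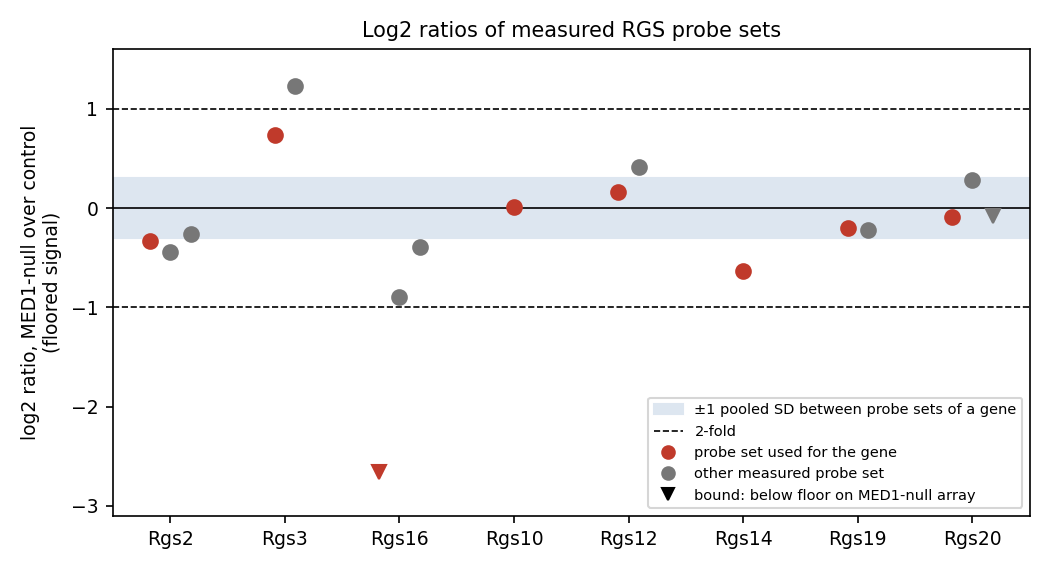
Log2 ratio (MED1-null over control, signals raised to the floor) of each of the 17 measured RGS probe sets. Red marks the probe set used for the gene, triangles mark bounds, the shaded band is 1 pooled SD (0.31) on either side of 0 and the dashed lines mark 2-fold. The 3 points of Rgs16 spread from -2.66 to -0.40, while those of Rgs2 and of Rgs19 lie close together.

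**Figure D3:**
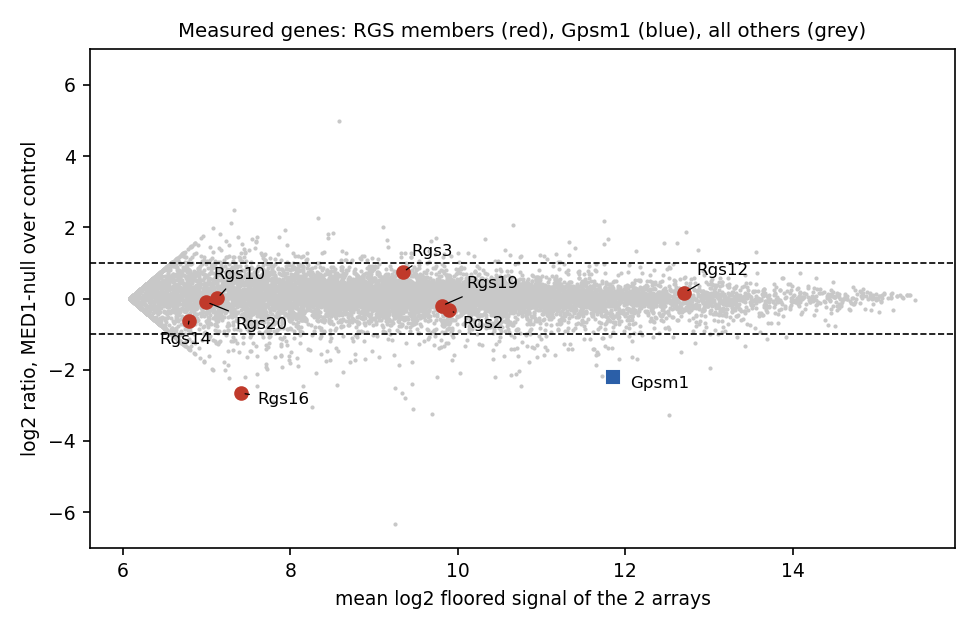
Log2 ratio (MED1-null over control) against the mean log2 floored signal for the 11621 measured genes in grey, with the 8 measured RGS members in red and Gpsm1 in blue. Dashed lines mark 2-fold. Rgs16 lies at -2.66 and at low mean signal, Gpsm1 at -2.21 and at high signal, and the other 7 members lie between the dashed lines.

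The rest of the RGS family and other proteins with an RGS-like domain were compared next, from lists drawn up with earlier results known. Of 9 further RGS genes with a probe set, 8 were under the floor on both arrays, between 0.7 and 56.9. The ninth, Rgs9, a regulator of phototransduction and dopamine signalling, read 142.2 on the MED1-null array and 176.7 on the control array (log2 ratio -0.31). All 9 other RGS-box genes were measured and none differed 2-fold, with a median log2 ratio of 0.18. The farthest were Snx13, a sorting nexin, at 1120.0 on the MED1-null array and 1749.8 on the control array, and Arhgef1, a RhoA activator driven by the G12 class, at 1896.8 on the MED1-null array and 1295.9 on the control array. The 3 probe sets of Snx13 went both ways, from -0.64 to 0.06 in log2 ratio. Axin2, a scaffold and target of Wnt signalling that has an RGS-like domain, read 132.1 on the MED1-null array and 103.3 on the control array.

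None of the 7 measured G alpha genes of the Gi and Gq classes, on which RGS proteins act, reached 2-fold by the probe set used, and their median log2 ratio was -0.09. Some of their other probe sets went further. For Gnai3, the probe set used read 9901.3 on the MED1-null array and 10444.7 on the control array, while a second, with the suffix _x_at, read 443.6 on the MED1-null array and 1067.1 on the control array, 2.41-fold lower. The 6 measured probe sets of Gnaq ran from -0.22 to 0.92 in log2 ratio. Gnai1 read 3308 on the MED1-null array and 2436 on the control array, 1.36-fold higher. Gnao1 read 39.7 on the MED1-null array, under the floor, and 94.0 on the control array, which is at least 1.39-fold lower. The 3 measured subunits of the Gs and G12 classes, which most RGS proteins do not act on, had log2 ratios from -0.02 to 0.02 by the probe set used. Gnas read 15488 on the MED1-null array and 15239 on the control array. Gna13 read 1546.1 on the MED1-null array and 1563.6 on the control array, and its 7 measured probe sets ran from -0.11 to 0.46 in log2 ratio. Of 9 measured G beta and gamma genes none passed 2-fold, and the farthest were Gnb4 (146.2 on the MED1-null array, 210.4 on the control array) and Gng11 (13.6 on the MED1-null array, under the floor, and 97.3 on the control array).

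Among proteins that bind G alpha in other ways, Gpsm1 had the widest difference. Gpsm1, also called AGS3, carries GoLoco motifs, as Rgs12 and Rgs14 do, and keeps Gi class subunits in the GDP form. Its 3 probe sets read 1727.0, 1123.2 and 768.0 on the MED1-null array and 7984.8, 3794.7 and 3017.2 on the control array. The signal was 4.62-fold, 3.38-fold and 3.93-fold lower on the MED1-null array, with every signal well above the floor, and the log2 ratio of the first was -2.21. The first and second probe sets carry the suffix _s_at, for sequence shared between transcripts, and the third does not. The log2 ratio of Gpsm1 stayed between -2.27 and -1.97 over the processing alternatives. It was -1.97 without probe sets of the suffixes _x_at and _s_at. The paralog Gpsm2 read 1142.2 on the MED1-null array and 1217.7 on the control array (log2 ratio -0.09). In this list 1 of 7 measured genes was beyond 2-fold, beside 3.86% of all measured genes. The other 6, among them the G alpha chaperones Ric8a and Ric8b and the RGS19 partner Gipc1, were within 2-fold, and the list's median was -0.14.

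Enzymes downstream of G proteins gave no common direction. Of 10 measured adenylyl cyclase and phospholipase C beta genes, 1 was higher and 1 lower by 2-fold or more, beside 3.86% of all measured genes, with a median log2 ratio of 0.13. Adcy5 read 282.0 on the MED1-null array and 108.2 on the control array by the probe set used, while a second gave 32.5 on the MED1-null array and 108.2 on the control array, so that the direction depended on the probe set. Adcy7 read 111.8 on the MED1-null array and 268.2 on the control array, 2.40-fold lower, with its other 2 probe sets at log2 ratios of -0.09 and 0.02. Genes that respond to cAMP stayed within 2-fold in all 9 measured cases, with a median of -0.03. Of these, the nuclear receptor Nr4a1 read 448.9 on the MED1-null array and 272.4 on the control array, 1.65-fold higher, and Nr4a3 read 94.0 on the MED1-null array and 56.0, under the floor, on the control array.

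Receptors and the kinases that switch them off held 4 genes beyond 2-fold. Of 24 measured receptor genes, 2 were higher and 1 was lower by 2-fold or more, beside 3.86% of all measured genes, and their median log2 ratio was -0.03. S1pr3, a receptor for sphingosine 1-phosphate that couples to the Gi, Gq and G12 classes, read 150.9 on the MED1-null array and 481.0 on the control array by the brightest probe set, 3.19-fold lower. Its other probe sets read 32.9 and 5.3 on the MED1-null array, both under the floor, and 148.0 and 107.8 on the control array. With the floor at 434.6 only a log2 ratio of -0.15 was left of the difference in S1pr3. P2ry1, a Gq-coupled receptor for ADP, read 187.4 on the MED1-null array and 59.5 on the control array, at least 2.77-fold higher on its 1 probe set. Gprc5a, an orphan receptor induced by retinoic acid, read 3144.1 on the MED1-null array and 1469.2 on the control array, 2.14-fold higher. Grk5, a kinase that phosphorylates active receptors, read 147.7 on the MED1-null array and 311.4 on the control array, 2.11-fold lower, and its second probe set was under the floor at 29.6 on the MED1-null array and 27.7 on the control array. With the median over both probe sets Grk5 had a log2 ratio of -0.54, short of 2-fold, and with the floor at 434.6 it was not measured. The other measured genes of the kinase and arrestin list, Grk6 and Arrb2, were within 2-fold.

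RGS4, RGS5 and RGS16 proteins are known substrates of the cysteine branch of the N-degron pathway, in which the first methionine is removed, the exposed cysteine is oxidised and arginylated, and a ubiquitin ligase then marks the protein for breakdown. Transcripts of this pathway were measured for all 7 listed genes, none was 2-fold apart, and the median log2 ratio was 0.001. The farthest were the aminopeptidase Metap1, at 3938.9 on the MED1-null array and 3185.5 on the control array, and the ligase Ubr2, at 633.6 on the MED1-null array and 751.0 on the control array. Ate1, the arginyl transferase, read 668.2 on the MED1-null array and 623.3 on the control array. These values are by the probe set used. The 5 measured probe sets of Ate1 ran from -0.59 to 0.10 in log2 ratio, and the 3 of Ubr2 from -0.72 to 0.35. Protein levels were not measured.

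**Figure D4:**
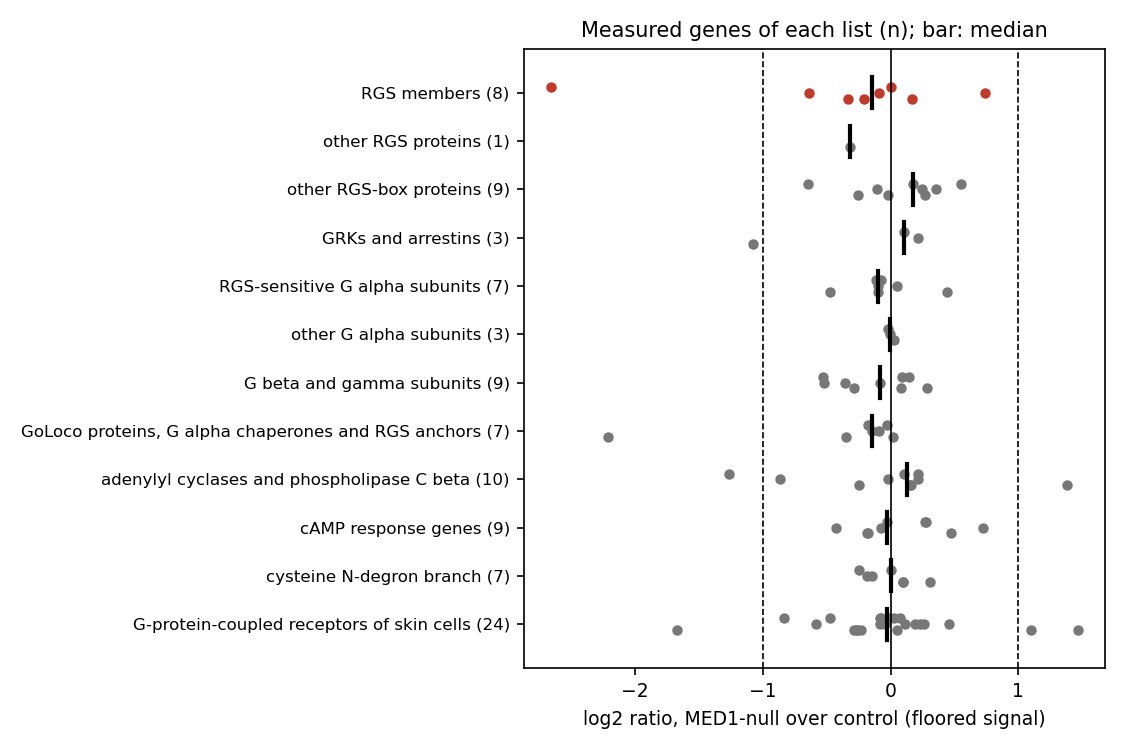
Log2 ratio (MED1-null over control, floored signal) of each measured gene in the RGS set (red) and the 11 other gene lists (grey), 1 row per list with its number of measured genes; the black bar is the list's median and the dashed lines mark 2-fold. Rgs16 at -2.66 and Gpsm1 at -2.21 lie farthest from 0, and list medians lie between -0.31 and 0.18.

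Markers of other skin cells also summed to less on the MED1-null array for several types, beside the lower signal of Rgs16. The sums are of signals before flooring and include those under the floor, which are noisy. Summed signals of the 8 fibroblast markers were 449.4 on the MED1-null array and 733.6 on the control array, and 2 of 8 on the MED1-null array against 6 of 8 on the control array reached the floor. The brightest, Pdgfra, read 126.2 on the MED1-null array and 156.6 on the control array. Of the 6 measured fibroblast markers, 5 had a log2 ratio below 0 and 1 above, and none was 2-fold apart once signals were raised to the floor. Col3a1, Dcn, Twist2 and Thy1 were under the floor on the MED1-null array, so their ratios are bounds and a wider difference is possible. Of these, Col3a1 read 35.5 on the MED1-null array and 120.8 on the control array. The higher one, Col1a2, read 115.3 on the MED1-null array and 80.3 on the control array. The 8 pericyte and smooth muscle markers summed to 2753.0 on the MED1-null array and 4291.5 on the control array, with only Acta2 and Tagln of the 8 at the floor. Of these, Acta2 read 2480.9 on the MED1-null array and 3665.2 on the control array, and Tagln read 153.6 on the MED1-null array and 431.4 on the control array, 2.81-fold lower. Melanocyte markers, all 8 at the floor on both arrays, summed to 19507 on the MED1-null array and 25056 on the control array. The brightest were Tyrp1, at 6715.4 on the MED1-null array and 9346.4 on the control array, and Dct, at 6583.6 on the MED1-null array and 7567.7 on the control array. The melanocyte receptor Kit read 136.8 on the MED1-null array and 409.5 on the control array, 2.99-fold lower, with log2 ratios of -1.58 and -0.88 in its pair of probe sets. By the probe set used, 6 of the 8 melanocyte markers had a log2 ratio below 0 and 2 above, Tyr and Sox10. Tyr read 746.8 on the MED1-null array and 626.6 on the control array, though its 3 probe sets ran from -1.26 to 0.25. Sox10 read 261.3 on the MED1-null array and 259.9 on the control array. Of 3 Schwann cell markers on the array, 1 reached the floor on the MED1-null array and 2 on the control array, with sums of 1961.8 on the MED1-null array and 3103.6 on the control array. Mbp alone made up 1918.0 of the sum on the MED1-null array and 2970.8 of that on the control array. Endothelial markers summed to 174.1 on the MED1-null array, with 0 of 5 at the floor, and to 206.6 on the control array, with 1 of 5, Kdr. Leukocyte markers summed to 244.7 on the MED1-null array, with 2 of 7 at the floor, and to 230.4 on the control array, with 1 of 7; Lyz2 was the brightest, at 121.5 on the MED1-null array and 104.0 on the control array. The 7 keratinocyte markers summed to 99716 on the MED1-null array and 80144 on the control array. The part of these cell types in the values of Rgs16, Gpsm1 or S1pr3 was not tested. RNA quality was alike by Gapdh, with a 3′ over 5′ signal ratio of 0.767 on the MED1-null array and 0.762 on the control array, and less so by the transferrin receptor, at 2.37 on the MED1-null array and 1.76 on the control array.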

How the data were processed

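The series holds 2 samples, each 1 Affymetrix mouse array of RNA from a primary keratinocyte culture, grouped by the genotype in the labels. The signal intensity values used are those the authors deposited, made in GeneChip Operating Software (per the labels' design text) by MAS5 (per the submitters' processing notes); its version is not given in these sources. The values show a whole-array scaling: without the top and bottom 2% of probe sets, both arrays average 500. Affymetrix control probe sets (64 of 45101) were left out of the floor, the median of all other signals (67.7). Symbols came from GEO's platform annotation and were checked by Entrez ID against the RefSeq table of GRCm38.p6: 34945 probe sets had 1 symbol, and those with several (932) or none (9160) were not named. Each gene was represented by its brightest probe set on average. Log2 ratios are MED1-null over control. Genes 2-fold or more apart were called. Precision is limited by there being 2 arrays.

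The members, gene lists and alternatives were chosen with earlier results of these data known. All members were named with all probe sets. From each other list, genes beyond 2-fold were named, or the farthest 2, and from marker lists those with the highest signal. Gpsm2, Ric8a, Ric8b, Gipc1, Gnai3, Gnaq, Grk6, Arrb2, Ate1, Axin2 and some markers, Kit among them, were named outside that rule, after their values were seen. Of 206 list entries, 191 had a probe set with 1 symbol, and the other 15 were not analysed here. The alternatives were other floors, rescaling to a median ratio of 1, quantile normalization, a lowess curve (fraction 0.3), the median over probe sets and the omission of probe sets with suffixes for shared sequence. The counting was tested on a simulated pair of arrays. Changes were planted there only in genes with at least 4 times the floor on both arrays. That test therefore does not cover genes near the floor or under it on 1 array, Rgs16 among them. Python 3.11.15, numpy 2.4.6, pandas 2.3.3 and statsmodels 0.14.6 were used.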

Additional observations from a re-analysis of the deposited data

How the results depend on the processing

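No paired analysis was possible because each condition has 1 array, and no replicate could be left out. The median log2 ratio of the RGS members stayed below 0 under all 9 alternatives, from -0.25 to -0.02. Rgs16 was below 0 wherever it was measured, at -3.61 with the floor at the 25th percentile or with no floor, and at -0.89 with the median over all or over the measured probe sets of a gene. The median over measured probe sets was added after the data were seen. Under both medians, and with the floor at the 75th percentile, 0 members were at least 2-fold lower. With the lower floor or none, Rgs4 (0.12) and Rgs5 (1.15) became measured and 1 member was at least 2-fold higher. Of all measured genes, 6.98% with the lower floor and 12.3% with none were higher by that margin. Rgs3 was 0.37 with the median over all probe sets. Under that median Grk5 was -0.54 and S1pr3 -1.13, Adcy7 was -0.09 and Adcy5 was 0. With the median over measured probe sets Adcy5 was 0.35, Adcy7 -0.09 and S1pr3 -1.13, and with the floor at the 75th percentile S1pr3 was -0.15. Without probe sets of the suffixes _x_at and _s_at, Adcy5 turned to -0.68 and Adcy7 to 0.024, and 0 cyclase or phospholipase genes were beyond 2-fold.

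Genes at least 2-fold higher numbered 190, and 1120, 49 and 2232 with the floor at the 25th percentile, at the 75th percentile and with none. Those at least 2-fold lower numbered 259, and 934, 106 and 1905. Lower genes made up 57.7% of those past 2-fold, and 45.5%, 68.4% and 46.0% with these floors, and 65.5%, 66.4% and 68.7% with the median, quantile and lowess rescalings.

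At the floor of the 25th percentile 12.8% of 16039 measured genes were beyond 2-fold, with none 22.7% of 18193 and at that of the 75th percentile 2.22% of 6972, so the list counts that follow are not read as results about the lists. With the floor at the 25th percentile, the members beyond 2-fold were 1 of the other RGS genes, 3 of the kinases and arrestins, 1 of the Gi and Gq class subunits, 1 of the G beta and gamma genes, 3 of the GoLoco list, 4 of the cyclases and phospholipases and 7 of the receptors. Among markers they were 1 for keratinocytes, 5 for fibroblasts, 2 for pericytes and smooth muscle, 2 for endothelium and 1 for Schwann cells. With no floor these counts were 2, 4, 1, 1, 6, 4 and 14, with 1 cAMP response gene, and 2, 5, 3, 3 and 2 for the markers, with 2 for leukocytes. With the floor at the 75th percentile they were 0 for kinases and arrestins, cyclases and phospholipases, melanocyte and pericyte markers, and 1 for receptors. With the median over all probe sets they were 0 for kinases and arrestins and for cyclases and phospholipases. In all, 250 of 310 values stayed within the spread between probe sets, or within 1.5 times for counts. Counts of 0 that stayed 0 are among the 250, and genes or lists no longer measured under a setting were left out. The share is therefore not a measure of stability. The cause of the differences between settings was not tested beyond the change in which low signals were counted.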

Other observations

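The genes beside Rgs16 and Rgs3 in RefSeq order (GRCm38.p6, protein-coding, 5 on each side) were looked up after the values of both were seen. Of the 10 neighbours of Rgs16, 6 had a probe set with 1 symbol, 3 were measured, and these 3 were higher on the MED1-null array. Lamc1, the laminin gamma 1 chain, read 1591.3 on the MED1-null array and 656.8 on the control array (log2 ratio 1.28). The helicase gene Dhx9 read 3248.0 on the MED1-null array and 2517.0 on the control array, and Npl, an enzyme of sialic acid breakdown, 190.2 on the MED1-null array and 148.9 on the control array. Rgs8, the RGS gene next to Rgs16, was under the floor, at 27.1 on the MED1-null array and 36.8 on the control array. All 10 neighbours of Rgs3 had a probe set and 7 were measured, 5 with a log2 ratio above 0 and 2 below. The lower ones were Bspry (log2 ratio -0.43) and Kif12 (at most -0.10). Among the higher ones Orm1, an acute phase protein, read 162.6 on the MED1-null array and 71.8 on the control array, and Hdhd3 read 213.3 on the MED1-null array and 131.3 on the control array. Over all measured genes 42.9% lay below 0, so the counts of neighbours are not read as results about them.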
